A study of Mus musculus with 18 samples.

Results

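Nfe2l2 encodes NRF2, the transcription factor that switches on the cell's defence against oxidants and electrophiles, and Keap1 encodes the protein that holds it down. Both genes were followed with 8 of their textbook targets, Hmox1, Nqo1, Gclc, Gclm, Txnrd1, Srxn1, Gsr and Prdx1. These 10 genes were chosen by name and not by a limit on their values, though with earlier results of these data known, and all 10 were found among the 20207 genes listed for every library. The question put to them was whether Hmox1 moved with the other targets or apart from them. In both comparisons with the control where it was called, it moved apart from them, as it did from most other genes measured, while between 135 and 405 min of tunicamycin Gclm was called higher along with it. Hmox1 was 4.06-fold higher than the control at 135 min of heat shock and 7.68-fold higher at 405 min of tunicamycin. None of the other 7 targets passed the test for a rise in either comparison, beside 4.75% and 23.3% of all genes that did. Gclm missed it at 405 min of tunicamycin, with a log2 fold change of 0.50 (adjusted p = 0.0668, edgeR).

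In unstressed cells, KEAP1 presents NRF2 to a CUL3 ubiquitin ligase and NRF2 is degraded. Oxidants and electrophiles modify cysteines of KEAP1, NRF2 then accumulates, pairs with a small MAF protein and binds antioxidant response elements, whose core is written TGACNNNGC. Its targets make and recycle glutathione (Gclc, Gclm, Gsr), run the thioredoxin and peroxiredoxin cycle (Txnrd1, Srxn1, Prdx1), reduce quinones (Nqo1) and break down heme (Hmox1). Hmox1 is known to answer to further inputs as well, among them the repressor BACH1, which occupies the same kind of element and leaves it when it binds heme.

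The cells were NIH3T3, an immortalised line of mouse embryonic fibroblasts, carrying a stably introduced fusion of a destabilizing domain (DD) to superfolder GFP and sorted for high fluorescence. All 6 groups, the control included, kept S1, the ligand that stabilises the DD. The control was taken at 0 min with no stress, heat shock (HS, a shift to a higher temperature) at 45 and 135 min, and tunicamycin (Tu, which blocks N-linked glycosylation and so burdens the endoplasmic reticulum) at 45, 135 and 405 min. The 6 groups hold no unstressed samples at the later times. Effects of stress and of elapsed time therefore cannot be told apart in comparisons with the control or between times. Each group held 3 samples, and since the labels do not say that they were separate cultures, p-values measure only the spread between these samples, which may be technical.

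Nfe2l2, Gclm, Srxn1 and Prdx1 are shown with the 250 bases before their RefSeq start site, because their windows held the antioxidant response element core while their transcripts went different ways. The sequences are from RefSeq on GRCm38.p6, 5′ to 3′ on the strand of the gene, and capitals mark the letters TGACNNNGC, or the related core TGAGNNNGC, on either strand. The windows are chr2:75704664-75704913 (minus strand) for Nfe2l2, chr3:122245307-122245556 (plus) for Gclm, chr2:152105274-152105523 (plus) for Srxn1 and chr4:116685349-116685598 (plus) for Prdx1.
Nfe2l2: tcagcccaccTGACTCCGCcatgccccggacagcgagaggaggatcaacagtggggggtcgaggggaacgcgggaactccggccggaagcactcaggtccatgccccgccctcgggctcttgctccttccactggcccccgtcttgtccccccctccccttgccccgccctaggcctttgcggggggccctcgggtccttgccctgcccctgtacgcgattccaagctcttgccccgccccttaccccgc
Gclm: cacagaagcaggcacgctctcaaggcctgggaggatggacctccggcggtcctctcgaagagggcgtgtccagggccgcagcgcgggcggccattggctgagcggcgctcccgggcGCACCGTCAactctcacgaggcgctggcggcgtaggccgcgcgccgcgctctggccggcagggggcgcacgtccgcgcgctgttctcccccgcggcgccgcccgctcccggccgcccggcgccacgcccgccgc
Srxn1: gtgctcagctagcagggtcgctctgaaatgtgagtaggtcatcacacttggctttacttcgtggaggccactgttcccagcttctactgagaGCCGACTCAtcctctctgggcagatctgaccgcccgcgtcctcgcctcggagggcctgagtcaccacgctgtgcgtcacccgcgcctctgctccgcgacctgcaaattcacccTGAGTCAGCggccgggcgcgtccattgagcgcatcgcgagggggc
Prdx1: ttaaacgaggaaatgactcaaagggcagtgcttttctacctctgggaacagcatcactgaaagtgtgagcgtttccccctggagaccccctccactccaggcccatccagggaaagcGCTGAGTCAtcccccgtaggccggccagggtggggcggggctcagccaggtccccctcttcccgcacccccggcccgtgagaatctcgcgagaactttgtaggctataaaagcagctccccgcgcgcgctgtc

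TGACNNNGC was searched on both strands in windows of 300 bases, 250 before and 50 after the start site, and was found in 12.4% of all 32851 windows of the table. Among the genes followed here it began 240 bases before the start in Nfe2l2 (TGACTCCGC), 134 bases before it in Gclm (GCACCGTCA, minus strand) and 133 bases before it in Prdx1 (GCTGAGTCA, minus strand). In Srxn1 it lay 28 bases past the start (GCTAGGTCA, minus strand), outside the stretch printed here, and in Txnrd1 it was found in 1 of 3 windows, 92 bases before the start (GCTTTGTCA, minus strand). The form TGAGNNNGC, a search added after the first results were seen, occurred in 17.6% of all windows. The letters differ, so both forms cannot match at the same position and strand. Srxn1 held it at 158 bases (GCCGACTCA, minus strand) and again nearer to the start, and Prdx1 at 15 bases past the start (GCGTTCTCA, minus strand). Neither form was in the windows of Keap1 and Nqo1. A heat shock element core, GAANNTTC (7.86% of all windows), and a C/EBP-ATF composite element, TGATGNAAT (0.965%), were in none of the windows of these genes. Hmox1, Gclc and Gsr were not in the table of windows. A match describes letters only.

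Each library held from 33415592 to 66478268 reads on genes, so that 3 reads amounted to 0.0451 to 0.0898 CPM (counts scaled to a common library total). This floor covers counting error only, and all 10 genes lay far above it. Levels below are CPM scaled by the trimmed mean of M values (TMM) over all 18 libraries. The fibroblast markers Col1a1, Col1a2, Vim, Thy1, S100a4 and Pdgfrb were present in every library (Vim at 1637 to 3689 RPKM), while the leukocyte marker Ptprc did not exceed 0.00532 RPKM, the epithelial markers Epcam and Cdh1 0.0217 and 0.0999, and the endothelial marker Pecam1 0.0565. The macrophage marker Cd68 stood at 3.72 to 7.61 RPKM. Some libraries stood apart from their replicates. A first axis carried 65.5% of the spread within groups, and gene weights along it tracked transcript GC content (rho 0.70 in size by Spearman's method, a description across genes). On this axis HS 45 min replicate 3 scored -0.71 against 0.27 and 0.44 for its replicates, HS 135 min replicate 2 scored 0.63 against -0.50 and -0.13, and Tu 135 min replicate 1 scored 0.46 against -0.23 for both others. Control replicate 1, shared by every comparison with the control, scored 0.19 against -0.10 and -0.09 on the same axis. Of the genes followed here, Nqo1 (weight -2.57), Prdx1 (-1.93), Keap1 (1.08), Nfe2l2 (-0.89), Hmox1 (0.79) and Gclm (-0.77) moved most along it, and Gclc and Txnrd1 (both -0.04) hardly at all. The part of this axis in the results below was not tested.

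In the control, levels per kilobase (RPKM) ran from 142 ± 72.2 (SD, n = 3) for Prdx1, a peroxide-reducing enzyme, to 12.6 ± 4.41 for the quinone reductase Nqo1. Txnrd1 stood at 114 ± 4.61, Hmox1 at 58.0 ± 9.11, Srxn1 at 40.2 ± 4.11, Gclm at 28.0 ± 6.71, Keap1 at 27.4 ± 4.05, Nfe2l2 at 26.0 ± 6.28, Gsr at 17.4 ± 2.62 and Gclc at 16.5 ± 0.353. In this order the 3 libraries of Txnrd1 lay above those of Hmox1, those of Hmox1 above Srxn1, those of Srxn1 above Gclm, and those of Gclc above Nqo1. All other neighbours overlapped. Prdx1 has processed pseudogenes that can take or lend reads, and its level is uncertain for that reason.

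A gene was called changed at an adjusted p under 0.05 in edgeR's quasi-likelihood test, adjusted by the Benjamini-Hochberg method over 12731 genes. At 135 min of HS, 1 of the 10 genes was called, beside 7.39% of all genes tested (4.75% called higher). At 405 min of Tu, 7 of 10 were called, 2 higher and 5 lower, beside 46.8% of all genes (23.3% higher and 23.5% lower). The other comparisons with the control called none: HS 45 min (0% of all genes), Tu 45 min (6.17%) and Tu 135 min (0.134%). For these, 4, 3 and 1 of the 10 genes had an unadjusted p under 0.05, beside 19.5%, 25.6% and 18.6% of all genes, and the DESeq2 Wald test called 0, 2 and 1, beside 3.54%, 14.5% and 5.02%. Over all genes, HS 45 min had 1568 higher and 912 lower at an unadjusted p under 0.05, and DESeq2 called 386 and 65. All 5 comparisons share the same control libraries.

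Hmox1, the inducible heme oxygenase (chromosome 8 of mm9, 77617517 to 77624491), stood at 93.7, 122 and 104 CPM in the control. It was at 241, 255 and 135 CPM at 45 min of HS and at 279, 572 and 449 CPM at 135 min. Every heat-shocked library lay above every control library, and HS 45 min replicate 3, one of the libraries that stood apart, was the lowest of its group. At 135 min the log2 fold change was 2.02 (standard error 0.294, adjusted p = 0.0159, edgeR), the 185th largest of 12731. Leaving out 1 library gave 1.80 to 2.26 and lost the call in 3 of 6 fits (without control replicate 2 or 3 or HS 135 min replicate 3). Those 3 fits called 0.118%, 0.0864% and 0.0864% of all genes. At 45 min the log2 fold change was 0.98 (standard error 0.283, adjusted p = 0.227, edgeR), and without HS 45 min replicate 3 it was 1.22 with an adjusted p of 0.00246, in a fit that called 45.4% of all genes.

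Under tunicamycin, the only time at which Hmox1 passed the test against the control was 405 min. Its level was 136, 147 and 159 CPM at 45 min, 158, 100 and 101 CPM at 135 min, and 740, 813 and 866 CPM at 405 min. The 45 min libraries lay just above the control, those of 135 min overlapped with it, and those of 405 min lay above every other library of the 18. Libraries of 45 and 135 min overlapped with each other, and a change between these times was not tested. The log2 fold change at 405 min was 2.94 (standard error 0.153, adjusted p = 1.18e-05, edgeR), the 85th largest of 12731, and stayed between 2.86 and 3.03 with the call kept when any 1 library was left out. It was 0.48 at 45 min (standard error 0.136, adjusted p = 0.0789) and 0.18 at 135 min (standard error 0.216, adjusted p = 0.691), neither past the threshold. Without Tu 135 min replicate 1 the value at 135 min turned to -0.05.

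**Figure D1:**
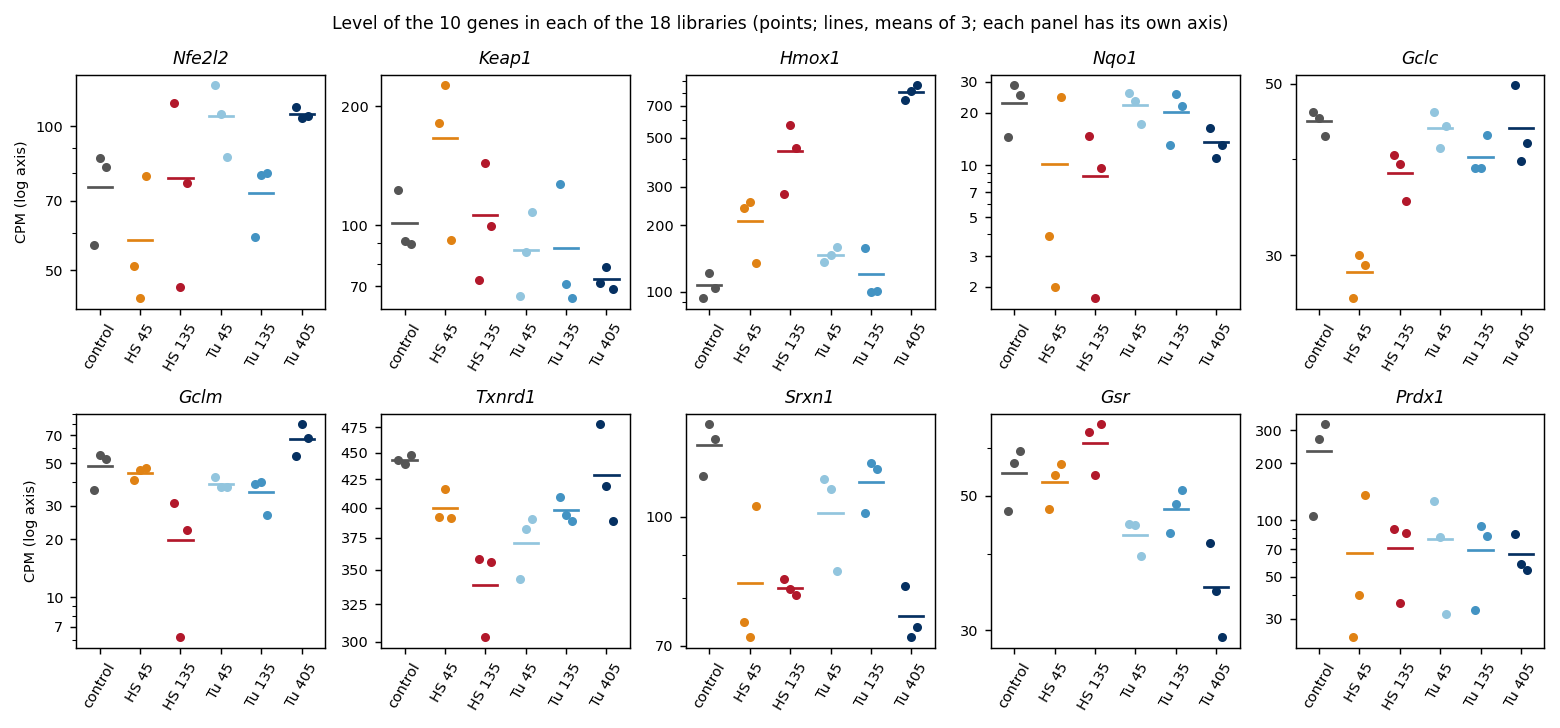
CPM of each of the 10 genes (log axis, a separate range for each panel) in the 18 libraries, by group; points are libraries and lines are means of 3. Hmox1 sits at 740 to 866 CPM at 405 min of tunicamycin against 93.7 to 122 CPM in the control, while Srxn1 and Prdx1 are below their control libraries in that group.

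The regulators moved less than Hmox1. Across the 6 groups, mean log2 CPM spanned 0.92 for Nfe2l2 and 1.09 for Keap1, beside 2.92 for Hmox1. Nfe2l2 (chromosome 2, 75513576 to 75542698) was at 56.5, 85.7 and 82.1 CPM in the control and at 110, 104 and 105 CPM at 405 min of Tu. The late libraries all lay above the control, and the change of 0.53 on the log2 scale (standard error 0.164, adjusted p = 0.0277, edgeR) passed the threshold, although leaving out any 1 of the Tu 405 min libraries lost the call, with adjusted p between 0.0748 and 0.0973. At 45 min of Tu it was at 122, 106 and 86.3 CPM, again above the control, but the change, 0.50 on the log2 scale, missed the threshold (adjusted p = 0.173). Under HS its libraries spread across the control range, from 43.8 to 78.6 CPM at 45 min and from 46.2 to 112 CPM at 135 min. Nfe2l2 mRNA is not a measure of NRF2 protein, which is set mainly by degradation.

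Keap1 (chromosome 9, 21034174 to 21043776) was at 123, 91.2 and 89.8 CPM in the control and at 71.5, 78.5 and 68.8 CPM at 405 min of Tu, below every control library. Its log2 fold change there was -0.45 (standard error 0.156, adjusted p = 0.042, edgeR), and it too lost the call without any 1 of the Tu 405 min libraries (adjusted p from 0.0814 to 0.14). At 45 min of HS the libraries stood at 181, 226 and 91.6 CPM. Replicates 1 and 2 were above the control, and replicate 3 lay within it. The log2 fold change at 45 min of HS was 0.71 (standard error 0.342, adjusted p = 0.271, edgeR). Over 10 alternative fits it ran from 0.04 to 0.73, so its size depended on the processing. No other comparison of Keap1 with the control passed the test.

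Glutathione is made in a first step by glutamate-cysteine ligase, with Gclc as its catalytic and Gclm as its modifier subunit. Gclc (chromosome 9, 77602617 to 77641458) was one of the steadiest genes, at 46.0, 45.2 and 42.8 CPM in the control and at 49.8, 39.7 and 41.9 CPM at 405 min of Tu (log2 fold change -0.01, interval -0.26 to 0.25). It was lowest at 45 min of HS, at 26.4, 30.0 and 29.1 CPM, below every other library of the 18. The log2 fold change of -0.65 (standard error 0.191) had an adjusted p of 0.227 in edgeR, and of 0.0165 without HS 45 min replicate 3.

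Gclm (chromosome 3, 121948510 to 121969566) was at 36.4, 55.0 and 52.6 CPM in the control, at 31.0, 6.18 and 22.3 CPM at 135 min of HS, and at 54.3, 79.5 and 67.2 CPM at 405 min of Tu. The HS libraries all lay below the control with a wide spread, and replicate 2, a library that stood apart, was the lowest. Neither the value of -1.27 on the log2 scale here (standard error 0.517, adjusted p = 0.15, edgeR) nor that of 0.50 at 405 min of Tu (standard error 0.198, adjusted p = 0.0668) passed the threshold. At 405 min the 54.3 CPM library overlapped with the control, and 4 of 10 alternative fits called the gene higher, with the lowest adjusted p at 0.0108.

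Gsr, which returns oxidised glutathione to its reduced form (chromosome 8, 34763710 to 34808634), was at 47.2, 56.6 and 59.3 CPM in the control and at 41.7, 34.8 and 29.2 CPM at 405 min of Tu. All late libraries were below the control. The log2 fold change was -0.60 (standard error 0.161, adjusted p = 0.0155, edgeR), and 3 of the 6 leave-one-out fits missed the threshold, those without Tu 405 min replicate 2 or 3 or control replicate 3 (adjusted p from 0.0517 to 0.0706). Under HS it stayed near the control, with log2 fold changes of -0.05 at 45 min and 0.17 at 135 min.

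Txnrd1, the cytosolic thioredoxin reductase (chromosome 10, 82321951 to 82360469), had the tightest control values, 443, 439 and 448 CPM. It was at 358, 303 and 356 CPM at 135 min of HS and at 478, 419 and 389 CPM at 405 min of Tu. Except at 405 min of Tu, all stressed libraries lay below the control, by small amounts: log2 fold changes were -0.15, -0.39, -0.24 and -0.14 at HS 45, HS 135, Tu 45 and Tu 135 min, and none passed the test (adjusted p from 0.20 to 0.655). At 405 min of Tu its value was -0.03, with an interval from -0.27 to 0.22.

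Srxn1 and Prdx1 work as a pair, as sulfiredoxin repairs peroxiredoxins that peroxide has overoxidised. Srxn1 (chromosome 2, 151931466 to 151937089) was at 112, 129 and 124 CPM in the control, at 84.1, 81.9 and 80.6 CPM at 135 min of HS, and at 82.5, 71.7 and 73.7 CPM at 405 min of Tu. Every library of both late groups lay below the control. At 405 min of Tu the log2 fold change was -0.66 (standard error 0.118, adjusted p = 0.00264, edgeR), and the call held whichever library was left out. The value at 135 min of HS, -0.56 (standard error 0.175, adjusted p = 0.0834), was of like size and did not pass.

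Prdx1 (chromosome 4, 116358204 to 116372605) was at 105, 270 and 322 CPM in the control and at 84.4, 58.7 and 54.1 CPM at 405 min of Tu, where its log2 fold change was -1.80 (standard error 0.376, adjusted p = 0.0054, edgeR). The call held whichever library was left out, with values from -2.14 to -1.51. In the other stressed groups it ranged from 23.9 to 136 CPM, with log2 fold changes from -1.81 to -1.51 that did not pass the test (adjusted p from 0.0662 to 0.241). Control replicate 1 was well below its own replicates for this gene, and Prdx1 follows the GC-linked axis strongly. With an offset for transcript GC content its log2 fold change at 405 min of Tu was -1.62 (adjusted p = 0.00192, edgeR).

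Nqo1 (chromosome 8, 109912125 to 109927105), which reduces quinones without releasing radicals, was the lowest of the genes and among the most variable. It stood at 14.5, 28.7 and 25.3 CPM in the control, at 3.91, 2.0 and 24.6 CPM at 45 min of HS, at 14.7, 1.73 and 9.64 CPM at 135 min, and at 16.4, 11.0 and 13.1 CPM at 405 min of Tu. The spread under HS followed the libraries that stood apart. Its log2 fold change of -0.73 at 405 min of Tu (standard error 0.26, adjusted p = 0.0473, edgeR) passed the threshold narrowly with overlapping libraries, and 5 of the 6 fits without 1 library lost the call.

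**Figure D2:**
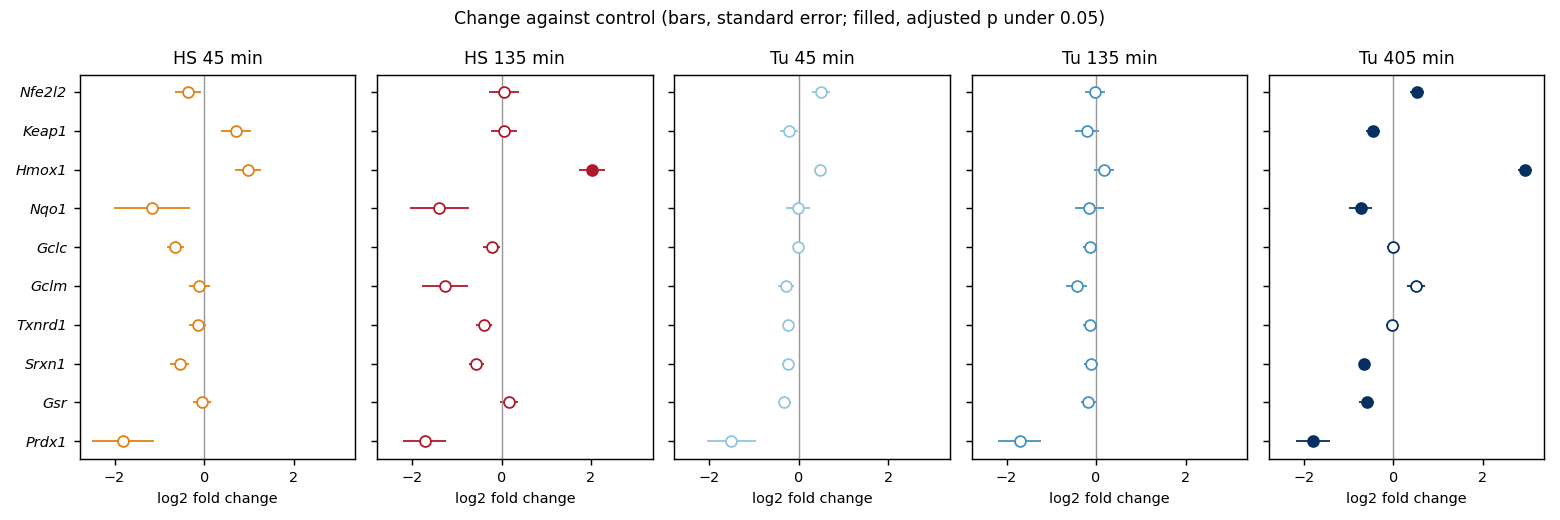
Log2 fold change against the control (horizontal axis) of the 10 genes in the 5 stressed groups; bars are standard errors and filled points have an edgeR adjusted p under 0.05. Hmox1 is filled at HS 135 min (2.02) and Tu 405 min (2.94), and at Tu 405 min the filled points of Keap1, Nqo1, Srxn1, Gsr and Prdx1 are below 0.

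Read over the 10 genes, the median log2 fold change was -0.26 at HS 45 min, -0.30 at HS 135 min, -0.23 at Tu 45 min, -0.15 at Tu 135 min and -0.24 at Tu 405 min, beside medians of all genes from -0.03 to -0.00. At 135 min of HS the libraries of 5 of the 10 genes all lay below the control, as did those of 19.0% of all genes, and those of Hmox1 alone lay above it, as did those of 18.1%. At 405 min of Tu the corresponding counts were 4 below and 2 above, beside 29.5% and 29.2% of all genes. The count at 405 min of Tu was sensitive to single libraries: without Tu 405 min replicate 2 or replicate 3 it was 3 of 10, beside 31.9% and 32.7% of all genes, and the calls of Hmox1, Srxn1 and Prdx1 were those kept in all 6 such fits. A single fit of all 6 groups called 4 of 10, beside 31.9% of all genes. At 45 min of HS the count turned on 1 library. Without HS 45 min replicate 3, 7 of 10 genes were called, beside 45.4% of all genes, with Hmox1 (1.22) and Keap1 (1.01) higher and Nfe2l2 (-0.65), Nqo1 (-2.94), Gclc (-0.67), Srxn1 (-0.73) and Prdx1 (-2.87) lower, and a fit of all 6 groups called 3, beside 10.6%. Leaving out control replicate 1 raised the count at Tu 45 min from 0 to 3, beside 19.6% of all genes.

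Because a ratio of 2 genes within 1 library is free of the scaling between libraries, Hmox1 was also set against each of the other 7 targets in every library. Relative to Txnrd1, Hmox1 was at a log2 ratio of CPM of -2.24, -1.85 and -2.10 in the control, -0.36, 0.92 and 0.34 at 135 min of HS, and 0.63, 0.96 and 1.15 at 405 min of Tu. Relative to Gclc it was at 1.03, 1.43 and 1.29 in the control and at 3.89, 4.35 and 4.37 at 405 min of Tu. Stressed and control libraries did not overlap in either case.

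At 405 min of Tu, the mean log2 ratio of Hmox1 to a target was higher than in the control by 2.44 (standard error 0.167) for Gclm, the smallest shift, and by 4.62 (standard error 0.503) for Prdx1, the largest. At 135 min of HS the shifts ran from 1.80 (standard error 0.377) for Gsr to 3.77 (standard error 1.23) for Nqo1. All 3 stressed libraries lay above all 3 control libraries for 7 of 7 targets in both comparisons, for 6 of 7 at HS 45 min and Tu 45 min (the exception was Nqo1 in each), and for Prdx1 alone at Tu 135 min. Set against all 12730 other genes, Hmox1 did the same for 91.9% at HS 135 min, 98.5% at Tu 405 min, 52.5% at HS 45 min, 47.6% at Tu 45 min and 13.6% at Tu 135 min. The separation from the 7 targets at HS 135 min and Tu 405 min was thus not particular to them, as Hmox1 separated from nearly all genes there. A single pair of groups of 3 cannot reach a two-sided exact permutation p below 0.10, and that was the value of each ratio whose libraries did not overlap.

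**Figure D3:**
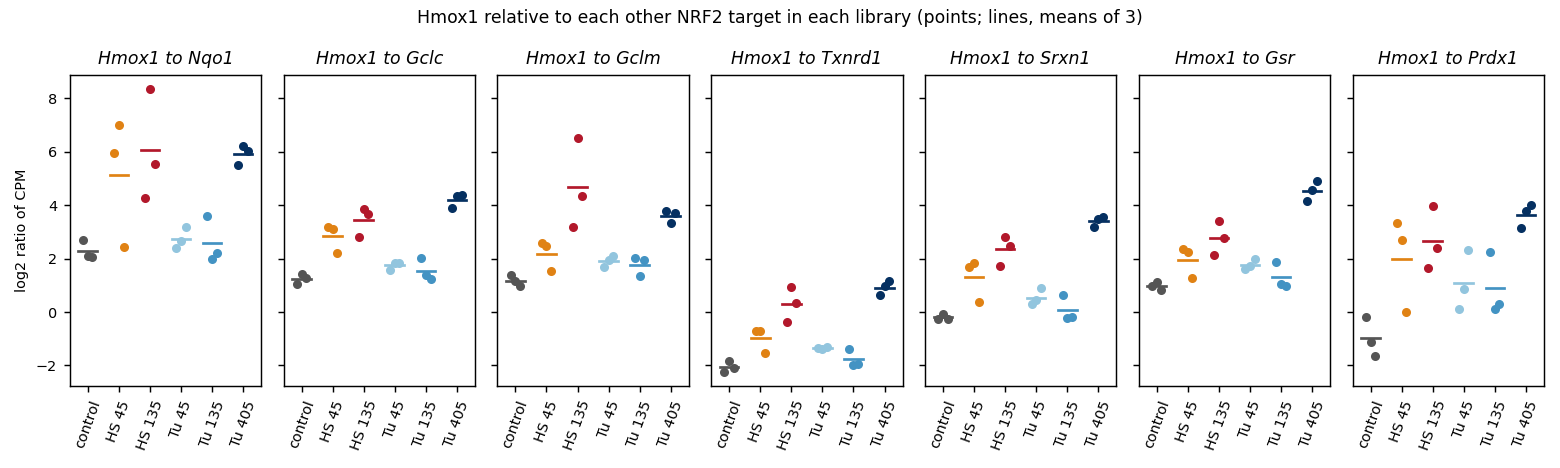
Log2 ratio of Hmox1 CPM to the CPM of each of the other 7 targets in the 18 libraries; points are libraries and lines are means of 3. For every target the libraries at HS 135 min and Tu 405 min lie above the control, with the ratio to Txnrd1 between -2.24 and -1.85 in the control and between 0.63 and 1.15 at Tu 405 min.

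Over the 6 group means of log2 CPM, which share libraries and depth, Pearson's r of Hmox1 with the other 7 targets ranged from -0.89 (Srxn1) to 0.03 (Gclm), with 1 of 7 above 0 and a median of -0.39. Among themselves those 7 targets gave 17 of 21 pairs above 0, with a median of 0.31 and a range from -0.74 (Gclm with Gsr) to 0.87 (Gclm with Txnrd1). Nfe2l2 and Keap1 had an r of -0.86 with each other, and of 0.38 and -0.25 with Hmox1. With 6 points these values are descriptions. Among the 1735 genes whose group means spanned at least 2 on the log2 scale, those most like Hmox1 included Ficd (0.997), which adds and removes AMP on the chaperone BiP, Prss12 (0.993), a secreted protease that lay below 1 CPM in every library, Nucb1 (0.987), a calcium-binding Golgi protein, and Tmem66 (0.984), a membrane protein. Ficd, for example, was at 8.31, 5.46 and 5.86 CPM in the control, at 14.3, 27.7 and 18.4 CPM at 135 min of HS and at 29.2, 29.5 and 30.4 CPM at 405 min of Tu. Prss12, by contrast, was at 0.126, 0.0536 and 0.16 CPM in the control and at 0.0726, 0.0562 and 0.219 CPM at 135 min of Tu. Some of these values lay at the level of 3 reads, so its likeness rests on few reads. Among all 12730 genes ranked, Nfe2l2 was the nearest of the 9 other genes, at place 3594, and Srxn1 the farthest, at place 12401.

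A list of 22 other NRF2 targets was set beside the 10 genes. At 405 min of Tu, 6 of them rose and 5 fell, where 46.8% of all genes were called in either direction, with a median of 0.04 beside -0.01 for all genes. Sqstm1, whose product p62 binds KEAP1 and carries cargo to autophagy, rose from 744, 664 and 650 CPM to 2794, 2921 and 2820 CPM (log2 fold change 2.07, standard error 0.138, adjusted p = 2.95e-05, edgeR). The ferritin genes Ftl1 (0.98, adjusted p = 0.00487) and Fth1 (0.94, adjusted p = 0.00563) rose as well, as did catalase, Cat (0.81, adjusted p = 0.00111), and the cystine transporter Slc7a11 (0.88, adjusted p = 0.0237). Pgd, an enzyme of the pentose phosphate pathway, fell from 266, 238 and 235 CPM to 161, 151 and 150 CPM (-0.66, adjusted p = 0.00246), the glutathione transferase Mgst1 by 1.46 on the log2 scale (adjusted p = 0.000491), and thioredoxin, Txn1, by 0.62 (adjusted p = 0.0123). Ferritin and thioredoxin genes have pseudogenes, and their counts are uncertain for that reason.

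At 135 min of HS none of the 22 was called in edgeR, where 941 genes were called in all. DESeq2 and edgeR's exact test each called 4 of them, beside 17.0% and 15.6% of all genes, and leaving out HS 135 min replicate 1 gave 8, beside 19.4%. Sqstm1 was at 1033, 1755 and 1192 CPM, above the control (0.95, adjusted p = 0.0601). At 45 min of Tu, 2 rose and 3 fell, beside 6.17% of all genes called in either direction. Osgin1 (1.02, adjusted p = 0.0212) and Sqstm1 (0.68, adjusted p = 0.0418) were higher. Txn1 (-0.93, adjusted p = 0.0152), the carbonyl reductase Cbr3 (-0.90, adjusted p = 0.0176) and the glutathione transferase Gstp1 (-0.78, adjusted p = 0.0225) were lower. Without control replicate 1 the count was 8, beside 19.6% of all genes, and without control replicate 2 it was 0, beside 0.801%. At HS 45 min and Tu 135 min none was called, and without HS 45 min replicate 3 the count at HS 45 min was 14, beside 45.4%.

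Of 11 partners and regulators of NRF2, 5 rose and 3 fell at 405 min of Tu, beside 23.3% and 23.5% of all genes. Bach1, the repressor of Hmox1, was at 42.5, 34.5 and 34.6 CPM in the control and at 23.9, 19.8 and 19.8 CPM at 405 min, below every control library (log2 fold change -0.79, standard error 0.147, adjusted p = 0.0031, edgeR). Its level at 135 min of HS was 39.4, 58.8 and 47.1 CPM, which overlapped with the control. Mafk, a small MAF partner, rose by a log2 fold change of 1.44 (adjusted p = 0.000109), and its relative Maff fell by 0.63 on that scale (adjusted p = 0.00723). Syvn1, an endoplasmic reticulum ubiquitin ligase that also acts on NRF2, rose from 126, 80.7 and 74.9 CPM to 1447, 1704 and 1861 CPM (4.18, adjusted p = 1.9e-05), and Nfe2l1, the NRF2 relative anchored in that membrane, rose too (1.19, adjusted p = 0.000255). At 135 min of HS, 3 of 11 rose and none fell, beside 4.75% of all genes called higher. The 3 were Syvn1 (1.88, adjusted p = 0.0185), Nfe2l1 (1.09, adjusted p = 0.0321) and Crebbp (1.84, adjusted p = 0.0436). These calls were lost in 3, 4 and 3 of 6 fits that each left out a library: control replicate 2, control replicate 3 or HS 135 min replicate 3 for each gene, and control replicate 1 as well for Nfe2l1.

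Among 16 further genes of the glutathione and thioredoxin systems, 6 rose and 1 fell at 405 min of Tu, beside 23.3% and 23.5% of all genes. Gpx4, which reduces lipid peroxides, rose from 516, 329 and 401 CPM to 684, 880 and 988 CPM (1.06, adjusted p = 0.00441, edgeR), and the thioredoxin inhibitor Txnip (1.54, adjusted p = 0.00034) and Sesn2 (1.42, adjusted p = 0.000212) rose too. Glutaredoxin, Glrx, was the member that fell, by 2.22 on the log2 scale (adjusted p = 5.01e-05). At 135 min of HS, Txnip (1.94, adjusted p = 0.0127) and Sesn2 (1.82, adjusted p = 0.0179) rose and Txnrd3 fell by 1.03 (adjusted p = 0.046), each lost in the same 3 of 6 fits as Hmox1. Of 10 genes of heme and iron handling, 3 rose and 2 fell at 405 min of Tu, where 46.8% of all genes were called. None was called at 135 min of HS (7.39% of all genes). The transferrin receptor Tfrc fell from 49.8, 74.0 and 65.7 CPM to 14.7, 9.19 and 9.54 CPM at 405 min (-2.48, adjusted p = 0.000116, edgeR).

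Lists of other stress pathways were set beside these. Of 12 HSF1 targets, 9 rose and none fell at 135 min of HS, beside 4.75% of all genes called higher. Hspa1b was at 263, 1142 and 1214 CPM there against 6.30, 5.50 and 5.47 CPM (7.24, adjusted p = 0.0058, edgeR). It shares sequence with Hspa1a, so their split is uncertain. At 405 min of Tu, 2 of the 12 rose and 7 fell, beside 23.3% and 23.5% of all genes. Of 11 ATF4 and CHOP targets, 6 rose at 135 min of HS and 10 at 405 min of Tu, and none fell in either. Of all genes, 4.75% and 23.3% were called higher in these comparisons. Ddit3, which encodes CHOP, was at 74.0, 69.4 and 72.2 CPM in the control, 257, 513 and 309 CPM at 135 min of HS and 2165, 2864 and 2859 CPM at 405 min of Tu. Over the 6 group means the median r with Hmox1 was 0.61 for the ATF4 and CHOP targets (range 0.41 to 0.86) and 0.20 for the HSF1 targets (-0.20 to 0.76). It was 0.42 for the further glutathione and thioredoxin genes (-0.77 to 0.89) and 0.35 for the NRF2 partners and regulators (-0.50 to 0.96). For the 22 other NRF2 targets it was 0.01 (-0.58 to 0.94), and for the heme and iron genes -0.10 (-0.86 to 0.92). The 9 genes followed with Hmox1 had a median of -0.25 (-0.89 to 0.38), beside -0.01 for all genes. Single genes of a list thus differed widely. Of the set examples among the 22, Sqstm1 had an r of 0.939 (place 116 of 12730) and Slc7a11 of 0.498 (place 2801).

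**Figure D4:**
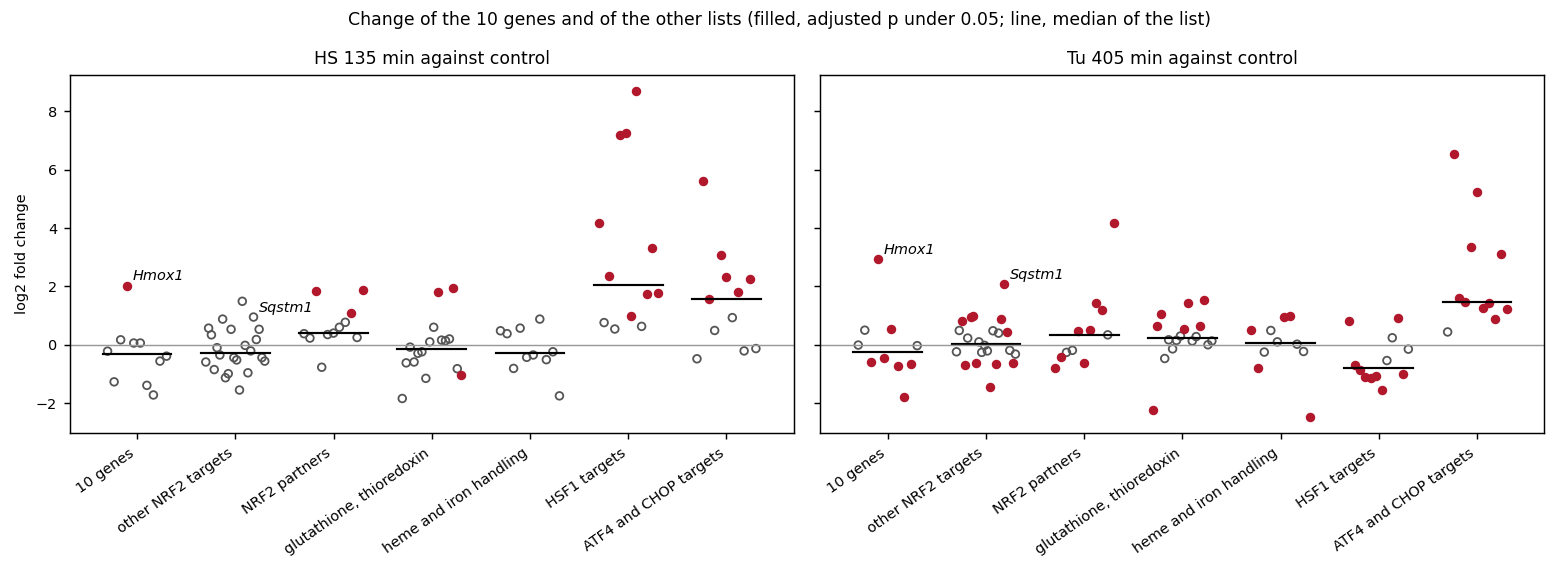
Log2 fold change against the control at HS 135 min and Tu 405 min for the 10 genes and 6 other lists; each point is a gene, filled where the edgeR adjusted p is under 0.05, and lines are list medians. Hmox1 (2.02 and 2.94) and Sqstm1 (0.95 and 2.07) are named, and the medians of the HSF1 targets (2.05 and -0.79) and of the ATF4 and CHOP targets (1.57 and 1.48) stand beside those of the 10 genes (-0.30 and -0.24).

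The cells also changed in their fibroblast markers at 405 min of Tu, where 5 of 6 fell, beside 23.5% of all genes. Their summed level was 3367 to 3784 RPKM, against 8226 to 8483 RPKM in the control and 6179 to 10232 RPKM in the other stressed groups. The summed level of the 5 markers of other cell types was 5.03 to 5.70 RPKM there and 4.89 to 6.84 RPKM in the control, nearly all of it Cd68. The cells were a single line, and bulk samples cannot tell fewer cells expressing these markers from less of their RNA per cell. The part of this fall in the changes above was not tested.

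Comparing stressed groups directly, Hmox1 was higher at 405 than at 135 min of Tu (log2 fold change 2.73, standard error 0.216, adjusted p = 0.000112, edgeR) and higher at 135 min of HS than at 135 min of Tu (1.83, standard error 0.32, adjusted p = 0.0411), the second a call kept in only 1 of 6 fits without 1 library. Between 135 and 405 min of Tu, 4 of the 10 genes were called, beside 43.7% of all genes (21.4% higher and 22.4% lower): Hmox1, Gclm (0.91, standard error 0.209, adjusted p = 0.0104) and Nfe2l2 (0.53, standard error 0.151, adjusted p = 0.0241) were higher at 405 min, and Srxn1 lower (-0.56, standard error 0.126, adjusted p = 0.00954). The count was 7 without Tu 135 min replicate 1, beside 63.8% of all genes, and 2 without Tu 405 min replicate 2 or 3, beside 28.2% and 27.9%. Nfe2l2 lost its call in 3 of 6 fits without 1 library and Srxn1 in 2 of 6. Gclm rose late with Hmox1 in this comparison, from 38.9, 40.0 and 26.7 CPM to 54.3, 79.5 and 67.2 CPM, with no overlap. Between HS and Tu at 135 min, Hmox1 was the 1 gene of 10 called, beside 2.12% of all genes. None of the 10 was called between 45 and 135 min of HS (0% of all genes, 1 of 10 at an unadjusted p under 0.05, 0 by DESeq2) or between HS and Tu at 45 min (0.204%, 3 of 10 unadjusted, 1 by DESeq2), and without HS 45 min replicate 3 the latter count was 6, beside 55.7% of all genes.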

How the data were processed

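Poly(A) RNA of 18 samples, 3 in each of 6 groups named by their labels, was sequenced on an Illumina HiSeq instrument. For making libraries the authors name a modified Illumina protocol and also a NuGEN kit. They do not say which libraries were made by which, and a part of this in the libraries that stood apart was not tested. The authors used the DNAnexus platform for alignment to mm9 and for counting against RefSeq genes; the aligner, the counter and their versions are not given in the sources used here. The deposited tables hold raw estimated counts by gene and an RPKM value that the authors made from them. From 23.9% to 27.1% of low values were not whole, so the estimated counts were rounded. A gene shared by near-identical copies is uncertain where the counting could split reads.

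Genes with at least 1 read in all 18 libraries were tested (12731 of 20207), after the study's removal of genes with a count of zero and its use of edgeR at a false discovery rate of 0.05. Each comparison was fitted on its own 6 libraries with edgeR 4.0.16 in R 4.3.3, by TMM and the quasi-likelihood test, with Benjamini-Hochberg adjustment over all genes tested. Standard errors were derived from each fold change with its F statistic, and intervals are normal intervals at a confidence level of 95%. Ratios and group means use log2 CPM with a prior count of 0.5. The self-test of the fits ran on simulated counts. Other steps used Python 3.11.15 with pandas 2.3.3, numpy 2.4.6 and scipy 1.17.1.

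The alternatives were other filters, DESeq2 size factors, total counts, edgeR's exact test, the DESeq2 Wald test, the 6 groups in 1 fit, a block for the replicate number, an offset for transcript GC content alone and with the block, another prior count, RPKM for the ratios, and leaving out each library. GC content came from GENCODE transcripts on the same assembly as mm9 and was matched for 97.6% of genes tested. Same-numbered libraries deviated together in all 3 pairs between Tu 135 min and the control only (r = 0.282, 0.226 and 0.186 across genes). The labels give a number and no pairing, so whether these samples were paired is not known. In that comparison none of the 10 genes was called with or without the block. Of all genes, 0.134% were called without it and 0% with it, so these counts cannot show whether pairing matters. No replicates were alike enough to be 1 library (chi-square per degree of freedom from 16.0 to 875.3). Control replicate 1 gave 275.4 and 241.7 with replicates 2 and 3, which gave 16.0 with each other.

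The 10 genes are a fixed list. Named genes of other lists are those past the threshold, at most 4 for each comparison by smallest p, with Slc7a11, Sqstm1, Hspa1b, Ddit3 and Atf3 as set examples, and genes most like Hmox1 are the 5 with the highest Pearson's r over the group means, of which 1 is not reported here. Txn1 and Maff at 405 min of Tu were also named after their values were seen. The members and lists were chosen with earlier results of these data known. Ppp1r15a and Adgre1 are not analysed here. Promoter windows are RefSeq's on GRCm38.p6, another build than mm9.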

Additional observations from a re-analysis of the deposited data

Results flagged for a closer look

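Levels under Tu differed between time points in 4 of the 10 genes, by the direct edgeR comparison of 405 with 135 min, a share near the 43.7% of all genes called there. Without unstressed samples at these times, Tu and elapsed time cannot be told apart. Hmox1 was 2.73 higher on the log2 scale at 405 min, with 740 to 866 CPM against 100 to 158 CPM and every library above. Gclm was higher by 0.91 and Nfe2l2 by 0.53, again in every library, and Srxn1 was lower, at -0.56, in every library. The calls of Nfe2l2 and Srxn1 were lost in 3 and 2 of 6 fits without 1 library. At 135 min Hmox1 was also called higher under HS than under Tu, by 1.83, with every HS library above every Tu library. That call was lost in 5 of 6 fits without 1 library. Which inputs set these differences was not tested.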

How the results depend on the processing

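The rise of Hmox1 at 405 min of Tu, and its rise against Tu 135 min, kept direction and call under all 10 alternatives and without any 1 library. Other counts of calls were less firm, and with 3 libraries a group small shifts near the threshold change them; the cause was not tested in any case below. A single fit of all 6 groups called 3 of the 10 genes at HS 45 min, 4 at HS 135 min and 4 at Tu 405 min. It called 2 between HS 135 and HS 45 min and 1 between HS 45 and Tu 45 min. Over all genes it called 10.6%, 25.5%, 31.9%, 7.11% and 9.98% in these comparisons, and 4.96% and 3.23% at Tu 45 and Tu 135 min. Of the 22 other NRF2 targets that fit called 3, 9, 3, 3 and 7 at HS 45, HS 135, Tu 45, Tu 135 and Tu 405 min, and Hmox1 passed at HS 45 min (0.98, adjusted p = 0.0343) and between HS 135 and HS 45 min (1.04, adjusted p = 0.0291). The DESeq2 Wald test called 2, 2 and 1 of the 10 genes at HS 135, Tu 45 and Tu 135 min and 1 between HS 45 and Tu 45 min. Of the 22 it called 1, 4 and 4 at HS 45, HS 135 and Tu 135 min. Over all genes it called 3.54%, 17.0%, 14.5% and 5.02% at HS 45, HS 135, Tu 45 and Tu 135 min. Between HS 45 and Tu 45 min it called 8.85%. With edgeR's exact test, 2, 1 and 1 of the 10 were called at HS 135, Tu 45 and Tu 135 min, beside 15.6%, 11.8% and 4.30% of all genes. Of the 22, 4 and 1 were called at HS 135 and Tu 135 min. Hmox1 at Tu 45 min passed with total counts (0.58, adjusted p = 0.0477), the exact test (0.48, adjusted p = 0.0472) and DESeq2 (0.46, adjusted p = 0.0368), with an adjusted p up to 0.396 over the alternatives. Total counts gave 1 of the 10 at Tu 45 min (8.31% of all genes) and 1 of the 22 at HS 135 min (7.26%). No filter gave 1 of the 22 at HS 135 min (6.80%). Over all genes, calls at HS 135 min were 605 higher and 336 lower in the test reported, 1232 and 927 by DESeq2 and 1829 and 1414 in the fit of all groups, and at Tu 135 min 16 and 1, against 318 and 321 and 233 and 178.

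With the replicate number as a block, no gene of the 10 was called at HS 135 min (0, Hmox1 at 1.97, adjusted p = 0.143) or between HS and Tu at 135 min (0, Hmox1 at 1.81, adjusted p = 0.421), where 0 of all 12731 genes were called in either, 2 were called between Tu 405 and Tu 135 min (29.5% of all genes), and 0 of the 22 at Tu 45 min (0.165%). At Tu 405 min (41.4%) it ended the calls of Keap1 (adjusted p = 0.0681) and Nqo1 (adjusted p = 0.119) and called Gclm (adjusted p = 0.0229). Nfe2l2 at HS 135 min turned to -0.01 and Hspa1b at Tu 135 min to -0.05. The labels give the libraries only a number. Outside the comparison of Tu 135 min with the control, same-numbered libraries did not deviate together in every pair. With the GC offset, calls of the 10 were 3 at HS 135 min and 1 at Tu 45 min. Of the 22 they were 5, 8 and 3 at HS 135, Tu 45 and Tu 135 min. The offset fits called 20.7%, 15.6% and 2.25% of all genes in these comparisons. With the offset and the block, 1 of the 22 was called at HS 135 min, beside 6.97% of all genes. Between HS and Tu at 135 min, 0 of the 10 was called (Hmox1 1.80, adjusted p = 0.147), beside 0% of all genes.

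Directions that turned belonged to values that had not passed the test. With the GC offset alone and then with the block, these were Gclm (0.55 and 0.51), Txnrd1 (0.02 and 0.01) and Gsr (0.09 and 0.09) at HS 45 min, Keap1 (-0.40 and -0.40) and Slc7a11 (0.36 and 0.36) at HS 135 min, Nfe2l2 (0.12 and 0.13) and Hspa1b (-0.14 and -0.26) at Tu 135 min, and Gclc (0.06 and 0.07) at Tu 405 min. Total counts turned Nfe2l2 (-0.07) and Keap1 (-0.14) at HS 135 min and Nqo1 (0.08) and Gclc (0.10) at Tu 45 min, and no filter turned Gclc at Tu 405 min (0.01).

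Leaving out 1 library at a time, the 10 genes gave 0 to 7 calls at HS 45 min, beside 0% to 45.4% of all genes. They gave 0 to 1 at HS 135 min (0.0864% to 19.4%), 0 to 3 at Tu 45 min (0.456% to 19.6%) and 3 to 7 at Tu 405 min (31.9% to 62.0%). Between Tu 405 and Tu 135 min they gave 2 to 7 (27.9% to 63.8%). Between HS 45 and Tu 45 min they gave 0 to 6 (0% to 55.7%), and between HS 135 and Tu 135 min 0 to 1 (0% to 2.86%). The 22 other targets gave 0 to 14, 0 to 8 and 0 to 8 at HS 45, HS 135 and Tu 45 min. Hmox1 ran from 0.81 to 1.22 at HS 45 min, from 1.80 to 2.26 at HS 135 min, from -0.05 to 0.29 at Tu 135 min, from 0.34 to 0.75 between HS 45 and Tu 45 min and from 1.62 to 2.07 between HS 135 and Tu 135 min. Its ratio separated from 1 to 4 of 7 targets at Tu 135 min. With all libraries it separated from 13.6% of all genes there. That share was not computed with a library left out, where fewer libraries separate more easily, so the count says nothing particular about the targets. The direction turned for Gsr at HS 45 min (-0.13 to 0.02), for Nfe2l2 (-0.29 to 0.36) and Keap1 (-0.20 to 0.27) at HS 135 min, for Nqo1 (-0.27 to 0.17) and Gclc (-0.05 to 0.03) at Tu 45 min, for Nfe2l2 (-0.19 to 0.12), Nqo1 (-0.39 to 0.09) and Hspa1b (-0.60 to 0.46) at Tu 135 min, and for Gclc (-0.13 to 0.06) and Txnrd1 (-0.13 to 0.03) at Tu 405 min. The 10 genes lay above the level of 3 reads in every library, and other effects of depth were not tested.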
